A study of Branchiostoma belcheri with 2 samples.

Results

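The miR-31 family was followed on microRNA arrays of gill RNA from *Branchiostoma belcheri*, an amphioxus and thus a chordate without a backbone. Probes were taken by name: every probe called miR-31 after its species prefix, with any letter or arm suffix, was a member, which gave 11 of 1686 miRNA probes. Animals of the LPS group were injected in the body cavity with 15 µl of lipopolysaccharide (LPS, an outer-membrane component of Gram-negative bacteria that animals sense as a sign of infection) at 1 mg/ml in PBS, and gills were taken 12 h later. Control animals were given an equal volume of PBS alone, and the label of their array gives no time. Each group had 1 array. The number of animals per array, their strain and their age are not stated in the sources. Differences between the arrays therefore have no replicate check and no p-value, and treatment and array cannot be told apart. The members themselves were chosen by name, but the family was selected on its measured LPS minus control differences, which were already known, so these are described here and not tested.

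MicroRNAs are cut from a hairpin precursor, and usually one arm (5p or 3p) is kept while the other decays. The kept arm guides a silencing complex to messenger RNAs, mainly through its seed, bases 2 to 8. miR-31 is shared by many bilaterian animals, and in mammals it is best known from skin and gut epithelia, where inflammatory signalling raises it. The gill of amphioxus is lined by a ciliated epithelium that filters food from seawater.

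The array files list the miRNA each probe was designed to bind. These sequences show how closely the family is conserved and where the target of a probe differs from an amphioxus sequence. The 5p sequence of *Branchiostoma floridae*, the Florida amphioxus (prefix bfl), served as the standard, since no 5p probe named for *B. belcheri* (bbe) was among the members, and the probes named without an arm align to it. Mismatches are counted against this standard. The 5p sequence of *B. belcheri* itself was not given, so how each probe pairs with the gill RNA is not known. Seeds are in capitals. The 7 sequences sharing the seed of bfl-miR-31-5p were, beside it, those of the sea squirts *Ciona intestinalis* (cin) and *Ciona savignyi* (csa), the larvacean *Oikopleura dioica* (odi), the sea lamprey (pma), a sea urchin (spu) and a clawed frog (xtr):
bfl-miR-31-5p: uGGCAAGAuguuggcauagcugu
cin-miR-31: uGGCAAGAuguuggcauagcua
csa-miR-31: uGGCAAGAuguuggcauagcu
spu-miR-31: aGGCAAGAuguuggcauagcu
xtr-miR-31a: aGGCAAGAuguuggcauagcug
pma-miR-31: uGGCAAGAugcuggcauagcc
odi-miR-31: aGGCAAGAugcuggcauugcug

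The zebrafish probe (dre) and the second frog probe start 1 base later, so their bases 2 to 8 are shifted, although the same letters are present:
dre-miR-31: gGCAAGAUguuggcauagcug
xtr-miR-31b: gGCAAGAUgcuggcaagcu

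The amphioxus probes for the opposite arm of the hairpin had seeds of their own:
bfl-miR-31-3p: cUGUGCUGacaaacugccauuu
bbe-miR-31-3p: gCUGUGCUgacaaacugccguu

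Positions are counted from 1 at the 5′ end of bfl-miR-31-5p, with its base first. The probes csa-miR-31 and dre-miR-31 are stretches of that sequence without a mismatch, ending at position 21 in csa and covering positions 2 to 22 in dre. Mismatches at an end only were found in cin-miR-31 (G22A) and in xtr-miR-31a and spu-miR-31 (U1A in both), and spu-miR-31 is xtr-miR-31a without its last base. Inner mismatches were found in pma-miR-31 (U11C, with U21C at its last base), odi-miR-31 (U11C and A18U, with U1A at its first base) and xtr-miR-31b (U11C, with position 17 deleted). All 3 thus carried U11C, close to the middle of the sequence and outside the seed. Here the differing bases of these 3 are in capitals:
pma-miR-31: uggcaagaugCuggcauagcC
odi-miR-31: AggcaagaugCuggcauUgcug
xtr-miR-31b: ggcaagaugCuggcaagcu

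No probe of another name came within 6 edits of bfl-miR-31-5p among the 1675 others (edits are inserted, deleted or exchanged bases). The nearest, bfl-miR-2065, was 7 edits away and was bright, averaging 10333 on the LPS array and 13655 on the control array. One probe outside the family, the larvacean odi-miR-1469, had the same seed (uGGCAAGAuggucgcgaaacuucc, 8 edits away), and its values were seen before it was singled out. It gave 97.9 and 108 on the LPS array and 100.1 and 102 on the control array, below the detection thresholds of both.

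Each probe had 2 repeat spots per array, and a spot value is the median Cy3 pixel intensity in arbitrary units. A probe was called detected when its mean lay above a threshold, the 95th percentile of that array's empty spots, which was 143 on the LPS array and 122 on the control array. Empty spots had a median of 99.8 on the LPS array and 107 on the control array. By this rule 6 of 11 members were detected on the LPS array, where 20.1% of all probes were detected, and 9 of 11 on the control array, where 38.4% were.

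The *B. floridae* 5p probe gave 802 and 1247 on the LPS array and 889 and 1013 on the control array. Its LPS spots enclosed its control spots, so the unscaled arrays did not separate. The sea squirt probe csa-miR-31, which has no mismatch to it, gave 1576 and 1520 on the LPS array and 867 and 1050 on the control array, with both LPS spots higher. The zebrafish probe dre-miR-31 gave 1246 and 1391 on the LPS array and 1218 and 1137 on the control array, which also did not overlap but lay close together.

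Of the probes with an end mismatch, xtr-miR-31a gave 1869 and 1848 on the LPS array and 1099 and 1039 on the control array. It had the highest mean of the family on the LPS array. cin-miR-31 gave 959 and 1543 on the LPS array, enclosing the 1114 and 1104 of the control array. The sea urchin probe spu-miR-31 gave 871 and 712 on the LPS array and 1257 and 1091 on the control array, the only one of these 6 with lower spots on the LPS array.

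The probes with an inner mismatch were dim on both arrays. pma-miR-31 gave 111 and 115 on the LPS array and 240 and 194 on the control array, and odi-miR-31 gave 98.5 and 109 on the LPS array and 173 and 146 on the control array. Both passed the threshold of the control array and not that of the LPS array. xtr-miR-31b, at 89.0 and 102 on the LPS array and 123 and 112 on the control array, was detected on neither.

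Opposite-arm probes lay near the level of empty spots, with 1 of them above the threshold of the control array. bbe-miR-31-3p gave 85.4 and 101 on the LPS array and 126 and 132 on the control array, so it passed the control threshold by a narrow margin and not that of the LPS array. bfl-miR-31-3p gave 100.5 and 99.4 on the LPS array and 120.4 and 114 on the control array and was detected on neither. The 3p sequences differ from each other by A19G (positions of bfl-miR-31-3p, its base first) and by 1 base at either end. They lie 12 and 13 edits from bfl-miR-31-5p. All 6 members detected on both arrays were thus 5p sequences, and a 3p RNA at a low level would not be detectable with these spots.

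After background correction and quantile normalization, which gives both arrays the same distribution of values, 5 of the 9 members detected on at least 1 array were higher on the LPS array. None was lower. Higher and lower mean at least a 2-fold difference with repeat spots that do not overlap between the arrays. Of all 684 probes detected on at least 1 array, 10.5% were higher and 10.5% were lower. Among probes detected on both arrays 5 of 6 members were higher, against 19.5% of all 303. The values that drew attention to the family are the ones counted here, so nothing is read from these shares. The members' median log2 difference was 1.49, beside -0.10 over all detected probes.

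The frog probe xtr-miR-31a was 5.15-fold higher (log2 difference, LPS minus control, 2.36 ± 0.05, where the error is the SE over 2 repeat spots per array and is technical only). csa-miR-31 was 4.65-fold higher (2.22 ± 0.15). The others counted were cin-miR-31 (1.59 ± 0.38), dre-miR-31 (1.55 ± 0.16) and bfl-miR-31-5p (1.49 ± 0.32). spu-miR-31 stood at 0.80 ± 0.25 and did not pass the 2-fold threshold.

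The lamprey probe pma-miR-31 was lower on the LPS array by at least 1.20-fold, a bound set by the lowest normalized signal among detected probes. It stood at -0.70 ± 0.13 and was not counted as lower. The bound was computed after quantile normalization only. With no normalization the difference was -0.76 and with loess -0.42. It was above 0 in 2 of 10 alternatives, at 0.36 with median scaling and 0.12 with calibration spots. odi-miR-31 (-0.47 ± 0.14) and bbe-miR-31-3p (-0.34 ± 0.13) lay too close to the threshold for a bound above 1, and both were likewise above 0 in those scalings (0.77 and 0.53 for odi-miR-31, 0.99 and 0.75 for bbe-miR-31-3p). xtr-miR-31b and bfl-miR-31-3p were detected on neither array and get no fold.

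These differences rested on the scaling. The constant between the arrays cannot be set from the data alone: with no normalization the median of all detected probes was -0.18, with scaling to the median of probes detected on both arrays it was 0.94, and with scaling on the perfectly matched calibration spots of the array it was 0.70. With no normalization none of the members was counted as higher. bfl-miR-31-5p was then at 0.12, cin-miR-31 at 0.17, dre-miR-31 at 0.20, csa-miR-31 at 0.74, xtr-miR-31a at 0.84 and spu-miR-31 at -0.54. Loess left 2 members higher, csa-miR-31 (1.51) and xtr-miR-31a (1.60). In the authors' deposited table, for which no background or scaling step is stated in the sources, bfl-miR-31-5p was at 1222 on the LPS array and 304 on the control array, and the same 5 members exceeded 2-fold.

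Relative to all detected probes, bfl-miR-31-5p lay between 0.30 and 2.41 above their median over the main setting and 8 alternatives of correction, scaling and source, and xtr-miR-31a between 1.02 and 3.11. spu-miR-31 lay between -0.36 and 1.40. Among the 303 probes detected on both arrays, xtr-miR-31a stood at percentiles 96.7 to 99.3 of the differences in these settings and bfl-miR-31-5p at percentiles 76.6 to 92.4. By brightness within its own array, which needs no scaling, bfl-miR-31-5p ranked 136 of 1686 probes on the LPS array and 195 on the control array. Among the 260 amphioxus probes it ranked 55 on the LPS array and 78 on the control array. Fewer probes were detected on the LPS array, so a rank can improve without more signal.

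The order of the probes within the family does not depend on a constant scaling, since a shift between arrays moves all of them alike. On the control array the means of the 6 bright probes ran from 951 to 1178, a ratio of 1.24 between the brightest and the dimmest. On the LPS array they ran from 791 to 1858, a ratio of 2.35. Intensities of different probes are not amounts of RNA, since each probe binds with its own strength, and these ratios describe the spread of signal only. The log2 differences of the 6 had an SD of 0.56 across probes, against a median SE over repeat spots of 0.21. On the LPS array, repeat spots had an SD of 0.32 in log2 for these 6 and 0.72 over all detected probes. On the control array these SDs were 0.14 and 0.21. An SE from 2 spots per array is itself uncertain, so whether the spread across probes exceeds technical error was not tested.

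xtr-miR-31a exceeded bfl-miR-31-5p in log2 difference by 0.88 ± 0.33 and csa-miR-31 exceeded it by 0.73 ± 0.36. With no normalization these gaps were 0.72 and 0.63. The gap of csa-miR-31 rested on the spots used, at 1.17 from the first repeat spots and 0.29 from the second. cin-miR-31 and dre-miR-31 differed from bfl-miR-31-5p by 0.10 ± 0.50 and 0.06 ± 0.36, within the repeat-spot error. spu-miR-31 stood at -0.68 ± 0.41 relative to it.

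Probes a single edit apart did not always move together. xtr-miR-31a and spu-miR-31 differ by the last base of xtr-miR-31a, and their log2 differences were 1.56 ± 0.26 apart (1.38 with no normalization). csa-miR-31 and spu-miR-31 differ by U1A and lay 1.41 ± 0.29 apart. The other pairs at 1 edit lay closer. xtr-miR-31a and dre-miR-31 differ by the first base of xtr-miR-31a and lay 0.81 ± 0.17 apart. csa-miR-31 and cin-miR-31 differ by the last base of cin-miR-31 and lay 0.63 ± 0.41 apart. This last gap rested on the spots used, at 1.23 from the first repeat spots and 0.03 from the second. From the first repeat spots alone csa-miR-31 lay farther from spu-miR-31 (1.58) than xtr-miR-31a did (1.49). Of the probes with 21 bases, csa-miR-31, dre-miR-31 and spu-miR-31 stood at 2.22, 1.55 and 0.80. The part of length in these differences was not tested.

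csa-miR-31 and bfl-miR-31-5p could be set side by side on the glass, since their repeat spots lay 2 columns apart in rows 17 and 79. On the LPS array csa-miR-31 was 1.97 times as bright as its neighbour in row 17 and 1.22 times in row 79. On the control array these ratios were 0.976 and 1.04. The pixels within LPS spots of the 6 probes varied with an SD of 4.18% to 25.9% of the spot value, against 3.86% to 8.44% on the control array, with the highest value in a spot of bfl-miR-31-5p. The part of spot quality in the spread on the LPS array was not tested.

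Signal above the empty-spot median, taken as a percentage of that of bfl-miR-31-5p on the same array, related brightness to sequence. The end-mismatch and mismatch-free probes lay between 74.8% and 190% on the LPS array and between 101% and 127% on the control array. The LPS percentages rest on the mean of 2 unlike spots of bfl-miR-31-5p, at 802 and 1247, and shift with the spot used. spu-miR-31, the only probe at 3 edits, was the dimmest of them on the LPS array (74.8%) and on the control array (126%) lay close to the brightest, dre-miR-31 at 2 edits (127%). At 4 edits, pma-miR-31 stood at 1.42% on the LPS array and 13.0% on the control array, and odi-miR-31 at 0.410% and 6.19%. Edits count bases missing at an end as well as mismatches. Such missing bases made up 2 of the 4 edits in pma-miR-31 and 1 in odi-miR-31. At 5 edits, xtr-miR-31b stood at -0.439% on the LPS array and 1.23% on the control array. The detection threshold corresponds to 4.72% on the LPS array and 1.74% on the control array, so the LPS values of these 3 say only that they were under that level.

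The same measure was taken on the maker's calibration spots, which come in perfectly matched and mismatched forms. Of 27 mismatched types, 23 could be set against a perfectly matched partner, having signal above the control threshold with a partner detected on both arrays. Their signal above empty spots was a median of 1.19% of the partner's on the LPS array and 10.3% on the control array, lower on the LPS array in 22 of 23. Demanding signal on the control array favours that direction. The part of binding conditions in the dimming of pma-miR-31 and odi-miR-31 was not tested.

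Other species' probes of the rest of the array were grouped the same way, by their closest amphioxus probe with up to 3 mismatches and no gaps, where an end is the first or last 2 bases. Outside miR-31, 7 detected probes without a mismatch had a median log2 difference of 0.22, and 32 with end mismatches only had 0.14. The 66 detected probes with inner mismatches had a median of -0.57, with 25 lower and 2 higher, where 10.5% of all detected probes were lower and 10.5% higher. Of these 66, 20 were not detected on the LPS array, and over the 46 detected on both arrays the median was -0.23. csa-miR-31 and dre-miR-31 were the only probes without a mismatch counted as higher, of 9 in all. xtr-miR-31a and cin-miR-31 were 2 of the 6 higher probes among 35 with end mismatches. pma-miR-31 and odi-miR-31 did not pass the LPS threshold, so their differences are not set against the -0.23 of probes detected on both arrays. The -0.57 includes 20 probes that likewise did not pass it, and no comparison with that median was made. xtr-miR-31b, which needs a gap, was not classed.

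Among the 138 other amphioxus probes detected on both arrays, those nearest to bfl-miR-31-5p in log2 difference were bfl-miR-2068-5p (1.49 ± 0.03), bfl-miR-125a-3p (1.496 ± 0.09) and bfl-miR-29a-5p (1.52 ± 0.06). Likeness here rests on 2 arrays. In unscaled intensity bfl-miR-2068-5p averaged 699.9 on the LPS array and 570.2 on the control array. In the same order bfl-miR-125a-3p averaged 1302 and 1202, and bfl-miR-29a-5p 5686 and 5135. Each mean was thus slightly higher on the LPS array, as was that of bfl-miR-31-5p (1024 and 951). The LPS spots of bfl-miR-31-5p enclosed its control spots, however, so its unscaled means do not separate the arrays.

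A list of other miRNAs linked to epithelia or ciliated cells (miR-200, miR-141, miR-429, miR-8, miR-203, miR-205, miR-34 and miR-449) had 44 detected probes. Of these, 6 were higher and 6 lower, with a median of -0.11. This lay near the 10.5% in either direction and the median of -0.10 of all detected probes. The highest were sko-miR-34-5p (1.98 ± 0.15), of an acorn worm, bfl-miR-34b-5p (1.64 ± 0.18) and bbe-miR-200a-3p (1.35 ± 0.23). miR-34 is abundant in ciliated cells of vertebrates, and miR-200 marks epithelia there. The lowest were dre-miR-200a (-2.003 ± 0.14), spu-miR-200-3p (-1.84 ± 0.46) and bbe-miR-34a-5p (-1.69 ± 0.19).

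Counts of other conserved families are read against the 10.5% higher and 10.5% lower of all detected probes, and they depend on the scaling. miR-34 with miR-449 gave 5 higher and 1 lower of 19 detected probes, and miR-29 gave 4 higher and 2 lower of 13. let-7 with miR-98 gave 3 higher and 16 lower of 33. Over probes detected on both arrays, the differences had an SD of 0.56 for miR-31 (n = 6), 1.16 for miR-34 with miR-449 (n = 10), 1.10 for miR-29 (n = 10) and 2.20 for let-7 with miR-98 (n = 19). These SDs are spreads over probes that can bind the same RNA, not over samples. The 6 miR-31 probes have no mismatch to bfl-miR-31-5p or end mismatches only, whereas the other families were not sorted by mismatch. The sets are therefore unlike, and the difference between families was not tested.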

How the data were processed

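Gill RNA was measured on 2 single-colour arrays, 1 LPS and 1 control, grouped by the agent in the labels. Per the labels, total RNA received a poly(A) tail and a ligated Cy3 tag. Per the file headers, spot values are median Cy3 intensities on a linear scale; they are deposited without a background column, and the sources name no scanner or software. A second file deposited by the authors holds 1 processed intensity per probe and array and served as an alternative.

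The background of all 3968 spots was corrected by normexp with an offset of 50 (limma 3.58.1, R 4.3.3). Values were then converted to log2, quantile-normalized over miRNA spots and averaged over 2 repeat spots. With 1 array per group no test was possible. The number of arrays limits the precision. The rule counting higher and lower probes was tried on simulated data, with both arrays built from the control intensities and given equal spot noise. The real repeat spots of detected probes had an SD of 0.72 in log2 on the LPS array and 0.21 on the control array. The simulation therefore does not give the rate of false calls in these data. Substitutions came from alignments of the target sequences in the scanner files.

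All members were named; of other probes, any within 6 edits of bfl-miR-31-5p (there was none), the 3 amphioxus probes most like bfl-miR-31-5p in difference, and 3 epithelial probes at either extreme. bfl-miR-2065 and odi-miR-1469 fall outside this rule and were chosen after their values were seen. Members, lists and alternatives were chosen with earlier results of these data known. Alternatives covered background correction, scaling, detection, threshold, single repeat spots and the deposited table.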

Additional observations from a re-analysis of the deposited data

How the results depend on the processing

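The 5 members counted as higher became 2 with loess, 0 with no normalization, 3 at a 3-fold threshold and 6 at 1.5-fold. The count stayed at 5 with the other corrections, scalings, detection rules and single repeat spots. Of all 684 detected probes, however, 314 were higher with median scaling and 177 with calibration spots, against 72 in the main setting. The unchanged 5 in those 2 scalings is therefore not read as stability. No member was lower, except 1 at 1.5-fold and 3 in the deposited table, namely pma-miR-31, odi-miR-31 and bbe-miR-31-3p, the last listed there at 0.01 on the LPS array. The members' median log2 difference of 1.49 became 1.26 with offset 200, 1.24 with median scaling, 0.89 with loess, 0.12 with no normalization and 1.00 with calibration spots, and 1.72 and 1.01 without repeat spot 1 or 2. Relative to all detected probes it was 1.59, and 1.30 with offset 200, 0.30 with median scaling, calibration spots and no normalization (equal by construction), 1.02 with loess, 1.87 and 1.18 without repeat spot 1 or 2, 1.96 in the deposited table and 1.29 over probes detected on both arrays. Over all probes 72 were higher, against 44 with offset 200, 314 with median scaling, 36 with loess, 25 with no normalization, 177 with calibration spots, 161 in the deposited table, 110 at 1.5-fold and 18 at 3-fold. The 72 lower became 128 with no normalization, 289 in the deposited table, 42 over probes detected on both arrays, 125 at 1.5-fold and 45 at 3-fold. The causes were not tested. The deposited table holds 1 value per probe and array, and the single-spot alternatives use 1 spot. The condition that repeat spots do not overlap cannot act there, so these counts rest on the fold alone. xtr-miR-31a and csa-miR-31 were at least 2-fold higher in 9 of 10 alternatives, and spu-miR-31 in 0 of 10. No paired analysis was possible because each group has 1 array. How far the 3p and inner-mismatch probes could decrease was limited by the empty-spot level.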
